A study of Mus musculus with 8 samples.

Results

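Expressed microRNA loci of the mouse ventricle were read from a gene table of the heart after deletion of Sox5 and Sox6 in cardiomyocytes. A locus is 1 row of that table and can join a microRNA with the longer gene that overlaps it. The loci were chosen by name and by measured level. A row counted when part of its name was that of a microRNA and the mean of its DKO and Ctrl values was at least 1 FPKM (fragments mapped to a transcript, scaled by its length and by library size). This left 133 loci of 605 microRNA loci and of 23100 loci in all. Of these, 46 also held transcripts of 200 bases or more, called host transcripts here, and 87 held only shorter transcripts. The 133 loci carried 138 microRNA names, 1 of which, Mir17hg, names a host transcript.

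The study compared ventricles of 8 mice aged 4.5 months, 4 double knockout (DKO) and 4 control (Ctrl), with the atria removed. DKO mice were Sox5fl/fl and Sox6fl/fl with the aMHC-Cre transgene, and Ctrl mice carried the same floxed alleles without Cre. The aMHC promoter is active in cardiomyocytes, so Sox5 and Sox6 remain intact in the other cell types of the ventricle. No group carried Cre without floxed alleles, so an effect of Cre itself and the deletion cannot be told apart. Pressure overload is named in the title of the series, but no label states that these hearts were operated on. Each table held 1 pooled FPKM value per genotype and no value per animal. All values below are therefore those pooled values, with no error, and a locus or gene is said to be called when the authors' Cuffdiff comparison of the 4 DKO with the 4 Ctrl hearts gave a q of at most 0.05.

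A microRNA is cut from a longer primary transcript. The nuclear enzyme Drosha releases a hairpin, Dicer cuts the hairpin to the mature RNA, and an Argonaute protein carries the mature RNA to messenger RNAs that pair with its seed. Many microRNA hairpins lie in introns or exons of other genes, and microRNAs in introns of the cardiac myosin genes are known from heart muscle. The libraries were made with a TruSeq RNA kit, which selects polyadenylated RNA and does not capture mature microRNAs. A value of a short transcript here is thus what Cuffdiff assigned to the hairpin's interval, and no measure of the mature microRNA.

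Sequences below were taken from RefSeq on GRCm38.p6, where 119 of the 138 names matched by symbol and 2 by synonym. They are written 5′ to 3′ with the seed (bases 2 to 8) in capitals. The first group is shown because these microRNAs lie in introns of 3 myosin heavy chain genes and carry the same or a near-identical seed. Mir208a and Mir208b share the seed UAAGACG.
miR-208a-3p: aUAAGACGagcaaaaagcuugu
miR-208b-3p: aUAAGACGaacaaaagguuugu
miR-499-5p: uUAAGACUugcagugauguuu

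The second group is shown because these microRNAs share a seed, or a whole mature RNA, with another member, so that the values of related microRNAs can be set side by side. The seed UCAAGUA belonged to 3 loci (Mir26a-1, Mir26b and the Ctdsp2 locus with Mir26a-2), AUUGCAC to Mir25 and Mir32, and AGCACCA to both microRNAs of 1 locus (Mir29b-2 and Mir29c). Mir24-1 and Mir24-2 give the same miR-24-3p.
miR-26a-5p: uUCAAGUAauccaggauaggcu
miR-26b-5p: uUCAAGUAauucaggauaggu
miR-29b-3p: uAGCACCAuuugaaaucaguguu
miR-29c-3p: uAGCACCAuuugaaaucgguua
miR-25-3p: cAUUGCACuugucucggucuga
miR-32-5p: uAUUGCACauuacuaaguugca
miR-24-3p: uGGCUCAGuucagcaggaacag

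The third group holds microRNAs of called loci and of the locus with the highest level, the Ddx5 locus with Mir3064.
miR-22-3p: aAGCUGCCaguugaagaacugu
miR-207: gCUUCUCCuggcucuccucccuc
miR-700-5p: uAAGGCUCcuuccugugcuugc
miR-700-3p: cACGCGGGaaccgaguccacc
miR-3057-5p: aUUGGAGCugagauucugcgggau
miR-3057-3p: uCCCACAGgcccagcucauagc
miR-3064-5p: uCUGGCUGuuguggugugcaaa

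Over the matched names, leaving out any sequence placed on chromosome 18, 177 mature sequences carried 168 different seeds. Mir133a-1, Mir133a-2 and Mir1b have no sequence in this count, so seeds that they may share are not covered. Among the seeds counted, 9 were held by 2 or more loci. The let-7 seed GAGGUAG was among them. Mirlet7d was at 73.8 FPKM in DKO against 84.2 in Ctrl, and Mirlet7c-2 at 13.8 and 17.1.

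As a check of the labels, Sox6 was at 1.69 FPKM in DKO against 3.39 in Ctrl (q = 0.00158 in the authors' deposited table). Sox5 was at 0.497 and 0.369 FPKM and was not tested. All 12 cardiomyocyte markers were detected. One of them, Nppa, was called higher. The other 11 were at a lower level in DKO, and none of these was called. The list summed to 82182 FPKM in DKO against 95536 in Ctrl. Of the macrophage markers, 9 of 10 were called higher (415 against 269 FPKM in sum), and of the fibroblast markers 7 of 9 (760.0 against 577). Over all tested loci, 4.3% were called higher. The 8 endothelial markers summed to 409 FPKM in DKO and 436 in Ctrl. In these bulk samples, fewer cells of a type and less RNA per cell cannot be told apart.

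Cuffdiff tested 82 of the 133 loci and called 7, all higher in DKO, which is 8.54% of those tested. Over the whole gene table it called 893 of 12133 tested loci (7.36%), or 861 of 11914 (7.23%) at a mean of at least 1 FPKM, and 522 (4.3%) were called higher. The members' share thus lay near that of all genes for both directions together. For calls higher in DKO it was 8.54% beside 4.3%, a difference that was not tested. Members were selected on the mean level of both genotypes. A locus that passed through 1 genotype alone had to differ, and 42 loci were under 1 FPKM in the other genotype, while 91 reached 1 FPKM in both. At an unadjusted p under 0.05 there were 9 loci on the higher side and 1 on the lower side. Besides the called loci, these were Ercc2 with Mir343 (154 against 87.7 FPKM), Mir24-2 (16.2 against 0) and, on the lower side, Rpl13a with Mir5121 and Snord33 (483 against 572).

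The called loci were Cd74 with Mir5107, Apba3 with Mir3057, Gas5 with Mir5117, Rcan3 with Mir700, Dnaja1 with Mir207, 2210403K04Rik with Mir22, and Mir208a. In 5 of them the short transcript was above 0 in DKO and listed at 0 in Ctrl. In Cd74 the host transcripts made up the difference, and Mir208a had no host transcript in its row. In the isoform table, Cuffdiff called none of the 40 tested short transcripts of the member loci. At an unadjusted p under 0.05 there were 2 of them, Mir208a and Mir24-2. Among the called loci, only Mir208a had a tested short transcript. The short transcripts of the other called loci were not tested, so the count gives no result for them.

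**Figure D1:**
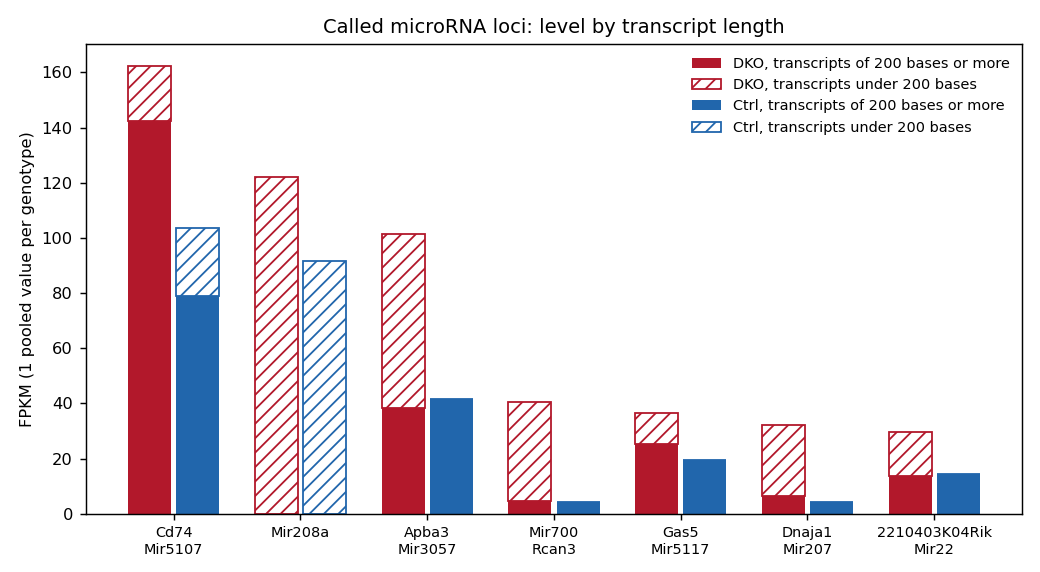
FPKM (1 pooled value per genotype, no error bar) of the 7 called loci in DKO (red) and Ctrl (blue), with transcripts of 200 bases or more as filled bars and shorter ones hatched on top. The hatched part is absent in Ctrl for the loci of Apba3, Rcan3, Gas5, Dnaja1 and 2210403K04Rik, and the filled parts of the Apba3 locus were at 38.4 and 41.4 FPKM.

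Apba3 encodes an adaptor protein that binds the amyloid precursor protein. Its locus, on chromosome 10 at 80730917 to 80754012 in mm9, was at 102 FPKM in DKO against 41.4 in Ctrl (2.45-fold, q 0.00158 in the authors' deposited table). Mir3057, of 91 bases, was at 63.1 FPKM in DKO and listed at 0 in Ctrl. The host transcript was at 38.4 and 41.4 FPKM, a log2 ratio of -0.11. It was not called (q = 0.796 in the authors' deposited isoform table). The locus and its host transcript thus lay on opposite sides of equality.

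The 2210403K04Rik locus holds the noncoding host transcript of miR-22, a microRNA that is abundant in heart muscle. It lies on chromosome 11 at 75275041 to 75280192 and was at 29.8 FPKM in DKO against 14.6 in Ctrl (2.04-fold, q 0.00158 in the authors' deposited table). The Mir22 hairpin, which overlaps an exon of its host in GRCm38, was at 16.0 FPKM in DKO and listed at 0 in Ctrl. The host transcript was at 13.8 and 14.6 FPKM, a log2 ratio of -0.08. It was not called (q = 0.882 in the authors' deposited isoform table). As in the Apba3 locus, the locus was called higher, while its host transcript was not called and lay below equality.

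Gas5 is a noncoding RNA whose introns carry small nucleolar RNAs. Its locus on chromosome 1 (162965297 to 162968668) was at 36.4 FPKM in DKO against 19.3 in Ctrl. Here the host transcripts contributed too, at 25.4 against 19.3 FPKM (1.31-fold), while Mir5117 was at 11.0 and 0. Neither Gas5 isoform was called. The more abundant one was at 21.5 and 16.0 FPKM (q = 0.283 in the authors' deposited table).

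Rcan3, a regulator of calcineurin, and Dnaja1, a co-chaperone of Hsp70, had the called member loci with the largest ratios. Mir700 was at 36.0 FPKM in DKO against 0 in Ctrl, and made up 88.9% of its locus in DKO. Mir207 was at 25.8 FPKM and 0, and made up 80.3%. The DKO value of Mir700 was exactly that of Mir3068, also of 79 bases. That value was the lowest above 0 in DKO among microRNA loci of 1 short transcript of this length. The start site group that holds Mir207 and part of the Dnaja1 isoforms was at 26.5 FPKM in DKO against 0.210 in Ctrl (q = 0.0175 in the authors' deposited table). The main Dnaja1 isoform was at 5.66 and 4.15 FPKM and was not called (q = 0.695 in the authors' deposited table).

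Cd74, the invariant chain that guides class II major histocompatibility molecules, was the called locus in which the longer transcripts carried the call. The locus was at 162 FPKM in DKO against 104 in Ctrl, and its host transcripts at 142 and 79.0 (1.80-fold). Both Cd74 isoforms were called. They were at 111 against 61.2 FPKM and at 31.3 against 17.7 FPKM, with q-values of 0.00312 and 0.0426 in the authors' deposited table. Mir5107 lay on the opposite side, with 19.96 FPKM in DKO against 24.7 in Ctrl. The macrophage markers above moved in the same direction as Cd74, and none of the 10 was at 0 in either genotype. Their part in the Cd74 result was not tested.

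In 2 further loci the host transcripts were called and the locus was not. Prmt2 encodes an arginine methyltransferase. Its coding sequence was at 14.6 FPKM in DKO against 10.4 in Ctrl (1.40-fold, q 0.00586 in the authors' deposited table). The Prmt2 locus with Mir678, on chromosome 10 at 75669967 to 75700610, was at 14.6 and 64.0 FPKM, a log2 ratio of -2.13, because Mir678 was listed at 0 in DKO and at 53.6 FPKM in Ctrl. Its q was 0.716 in the authors' deposited table. The Prmt2 isoforms, taken singly, were not called.

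Scd2, a stearoyl-CoA desaturase that makes monounsaturated fatty acids, was the other. Its transcript was at 10.3 FPKM in DKO against 7.97 in Ctrl (1.295-fold, q 0.0183 in the authors' deposited isoform table). The Scd2 locus with Mir5114, on chromosome 19 at 44368166 to 44381352, was at 53.4 and 7.97 FPKM, with Mir5114 at 43.1 and 0. Its q was 0.858 in the authors' deposited table. At the level of isoforms, Cuffdiff called 559 of 18490 tested rows (3.02%). Among the 73 tested longer isoforms of the member loci it called 3, those of Cd74 and Scd2. Of all 86 tested transcripts under 200 bases, in microRNA loci or elsewhere, it called 0 (0%), and 2 had an unadjusted p under 0.05.

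Over the 46 loci with host transcripts, the summed host level was close to equal between the genotypes. The median log2 ratio was 0.00, the range -0.33 to 0.85, and 23 were higher and 23 lower in DKO. For 38 the host sums lay within 1.2-fold. Of the 44 with a host mean of at least 1 FPKM this was 86.4%, beside 83.7% of 11846 loci whose longer transcripts reached that level. Among these 44, the 3 largest host ratios were those of Cd74, Dnaja1 and Prmt2. The 3 smallest were those of Sumo2 with Mir684-1, a small ubiquitin-like modifier (1.35 against 1.70 FPKM), Tkt with Mir3076, the transketolase of the pentose phosphate pathway (8.98 against 10.6 FPKM), and Actr5 with Mir3474, an actin-related protein of a chromatin remodeller (2.63 against 2.96 FPKM).

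The whole loci spread much further, from a log2 ratio of -11.34 to 5.98 with a median of 0.15. In 21 loci the locus ratio and the host ratio parted by over 1.5-fold, or lay on opposite sides of equality with both past 0.1 on the log2 scale. The locus ratio was above the host ratio in 17 and below it in 4. The largest gaps were in A330076H08Rik with Mir344g, where the locus was at 0.0390 and 101 FPKM, and in 5730408K05Rik with Mir5136, at 38.7 and 0.613 FPKM. In Tnrc6b, a partner of Argonaute proteins, the locus with Mir5113 was at 64.1 and 8.23 FPKM and the host transcripts at 7.69 and 8.23. In Rps6ka4, a kinase of the nucleus, the locus with Mir5046 was at 66.5 and 9.62 FPKM and the host at 9.45 and 9.62. None of these 4 loci was called.

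**Figure D2:**
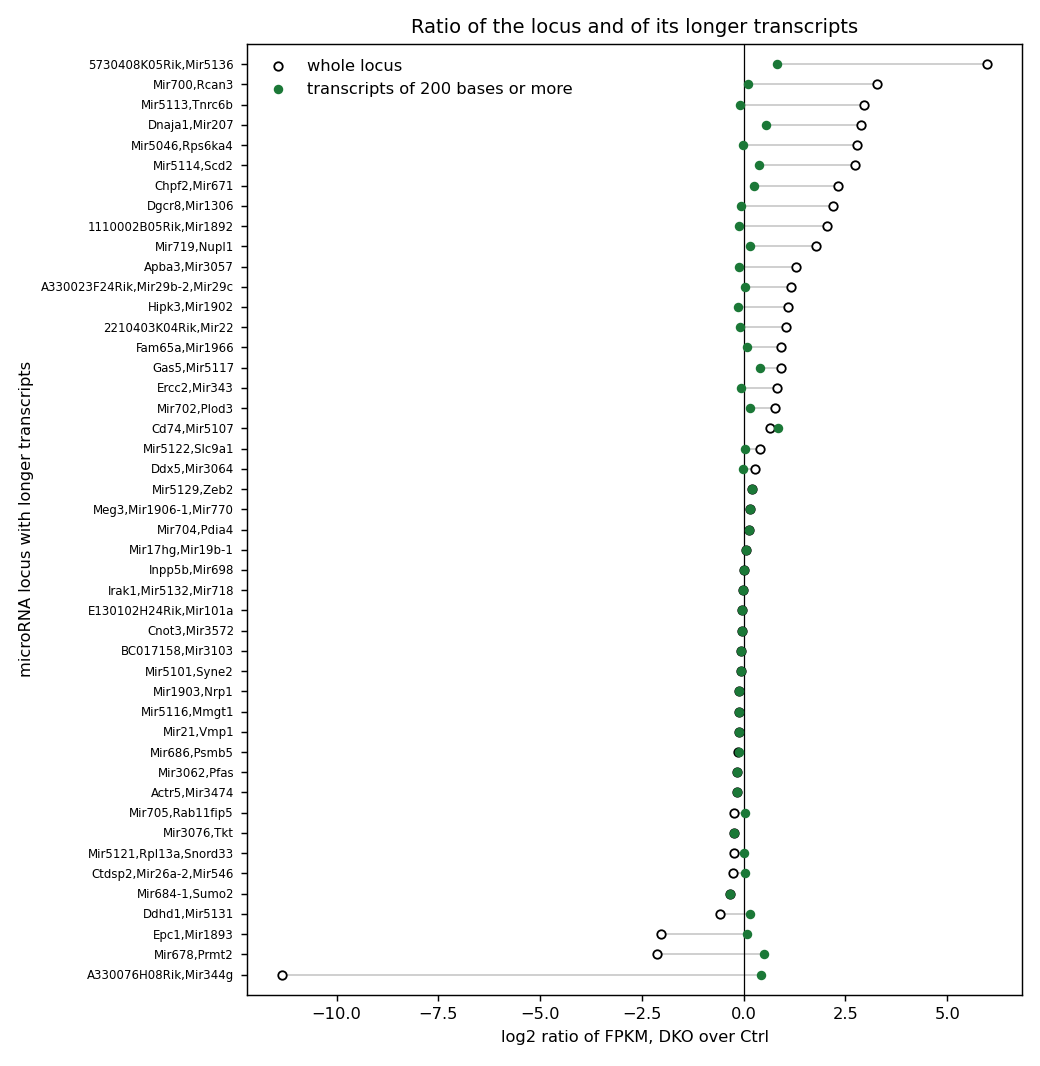
Log2 ratio of DKO over Ctrl FPKM for the 46 loci with host transcripts, 1 row per locus, with the whole locus as an open circle and its transcripts of 200 bases or more as a green point. The green points lie between -0.33 and 0.85, and the open circles between -11.34 and 5.98.

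In 17 of the 46 loci every short transcript was listed at 0 in both genotypes, so the row holds the host alone. In the gene table Cuffdiff called none, beside 7.36% of all tested loci, and gave none an unadjusted p under 0.05. The lowest q there, in the authors' deposited table, was 0.508, and the log2 ratios ran from -0.33 to 0.21 with a median of -0.06. In the authors' deposited isoform table, none of their isoforms was called either, and 3 had an unadjusted p under 0.05. These were Tkt (8.98 against 10.6 FPKM), Zeb2 (6.34 against 5.47) and an isoform of Mmgt1 (16.4 against 22.7). The 17 loci include Vmp1 with Mir21, a membrane protein gene of autophagy next to a microRNA known for its rise in the stressed heart. That locus was at 25.0 FPKM in DKO against 27.1 in Ctrl, and Mir21 at 0 in both. Meg3, a maternally expressed noncoding RNA that heads a large microRNA cluster, was at 8.52 and 7.61 FPKM with Mir770 and Mir1906-1 at 0. Nrp1, a coreceptor of vascular growth factors with Mir1903, was at 54.7 and 58.7 FPKM, and Zeb2, a transcription repressor with Mir5129, at 6.34 and 5.47.

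Of the other 29 loci, several had short transcripts far above their hosts. Ddx5, an RNA helicase of the Drosha complex, shares its row with Mir3064, which overlaps a Ddx5 exon. That locus on chromosome 11 (106641670 to 106650039) was the highest of all members, at 10079.6 FPKM in DKO against 8271 in Ctrl. Mir3064, of 67 bases, made up 97.6% and 97.1% of it, and the Ddx5 transcripts were at 239.6 and 243 FPKM. Psmb5, a catalytic subunit of the proteasome, was at 75.4 and 81.2 FPKM in a locus with Mir686 at 1135 and 1248. Rpl13a, a ribosomal protein gene, was the larger part of its own row, at 374 FPKM in both genotypes, with Snord33 at 109 and 139 FPKM and Mir5121 at 0 and 58.5. Levels in FPKM are per length, and these short transcripts were of 67 to 109 bases.

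The myosin microRNAs stood apart in level from one another. Mir208b, on chromosome 14 in an interval of 55587624 to 55613386, was the highest of the loci without a host in their row, at 6610.5 FPKM in DKO against 7116 in Ctrl (q = 0.994 in the authors' deposited table). Myh7, the slow myosin heavy chain whose intron holds it, was at 287 and 246 FPKM and was not called (q = 0.264 in the authors' deposited table). The noncoding D830015G02Rik in the same interval was at 97.8 and 127 FPKM. Mir208b is listed at 77 bases, and how Cuffdiff scaled such short transcripts is not stated, so amounts of RNA cannot be compared. By FPKM alone, the microRNA row was above its host gene in both genotypes.

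Mir208a showed the reverse order. It lies in an intron of Myh6, the main myosin heavy chain of the adult mouse heart, in an interval on chromosome 14 at 55560758 to 55586748. It was at 122 FPKM in DKO against 91.5 in Ctrl (1.33-fold, q 0.0413 in the authors' deposited table), and was the 1 called locus among 36 tested loci of short transcripts alone (2.78%). Among the 46 tested loci with hosts, 6 were called (13%), and over the whole gene table the share was 7.36%. The difference between these shares was not tested. Myh6 was at 4242 and 4636 FPKM (q = 0.935 in the authors' deposited table). In the isoform table, where p-values are adjusted over more rows, the same Mir208a values were not called (q = 0.0787 in the authors' deposited table). The cardiomyocyte markers, apart from Nppa, were not called and lay on the other side of equality from Mir208a. Their part in the Mir208a value was not tested.

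Mir499 lies in an intron of Myh7b, a myosin of slow muscle. It was listed at 0 in DKO and at 52.6 FPKM in Ctrl and was not tested. Myh7b was called higher, at 48.6 FPKM in DKO against 36.8 in Ctrl (1.32-fold, q 0.0185 in the authors' deposited table). By the listed values, host gene and microRNA row differed in direction, with a test for the gene alone. Mir499 is listed at 79 bases, where the lowest Ctrl value above 0 was 40.2 FPKM. Its row thus lay near the lowest listed level, and its direction is uncertain.

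**Figure D3:**
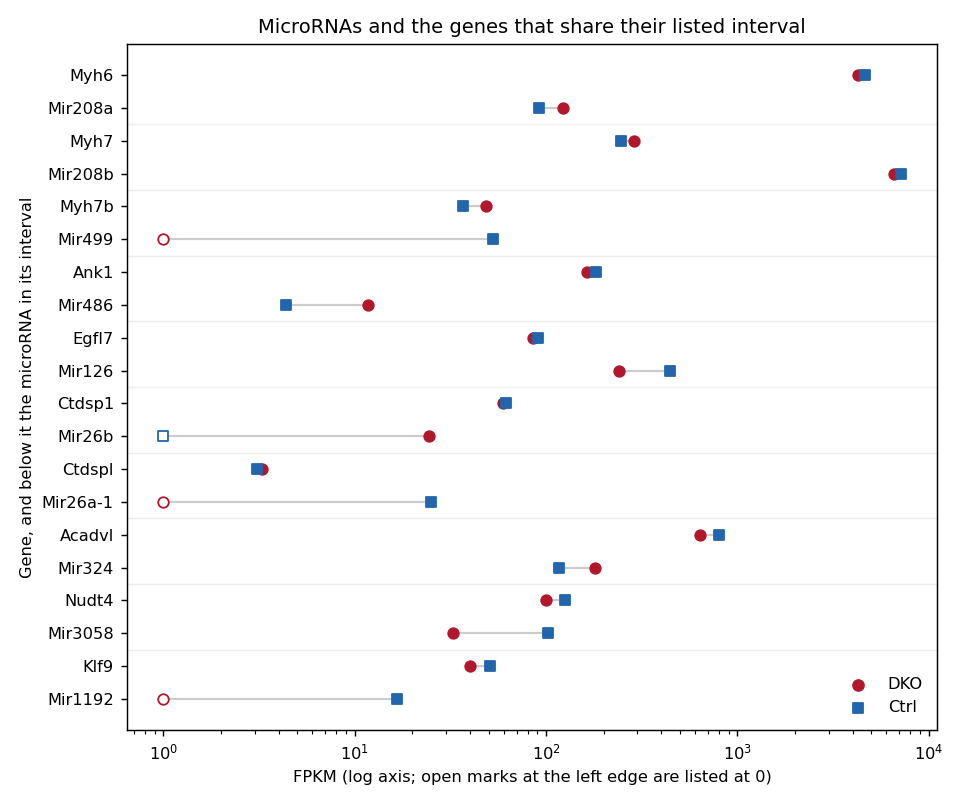
FPKM on a log axis (1 pooled value per genotype, DKO red circles, Ctrl blue squares) of 10 microRNAs and, above each, the gene in whose listed interval it lies. Open marks at the left edge are values listed at 0, and Mir208b at 6610.5 and 7116 FPKM lies above Myh7 at 287 and 246.

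Of the 87 loci of short transcripts alone, 64 shared their listed interval with 1 or more longer genes that had a row of their own, and 23 shared theirs with no longer gene. These were 73 longer genes, of which 66 were tested and 4 called, beside 7.36% of all tested loci. The median log2 ratio of those tested was -0.04, with a range of -0.43 to 0.40. By FPKM, the microRNA was above each such gene in both genotypes in 23 of the loci. How Cuffdiff scaled the short transcripts is not stated, so this gives no order of RNA amount. The called genes were Myh7b on the higher side and 3 on the lower side.

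Acadvl, the very long chain acyl-CoA dehydrogenase of fatty acid oxidation, was at 634 FPKM in DKO against 804 in Ctrl (q 0.0120 in the authors' deposited table), and Mir324 in its interval at 181 and 117. In GRCm38 Mir324 lies on the strand opposite to Acadvl and overlaps an exon of Dvl2. Nudt4, a hydrolase of inositol pyrophosphates, was at 100.3 and 125 FPKM (q 0.0145 in the authors' deposited table), and Mir3058 in its intron at 32.6 and 102. Klf9, a Krüppel-like transcription factor, was at 39.9 and 50.8 FPKM (q 0.00517 in the authors' deposited table), and Mir1192 in its interval at 0 and 16.6. None of the 3 microRNA rows was called. Mir324 was on the other side of equality from Acadvl, and Mir3058 and Mir1192 on the same side as Nudt4 and Klf9.

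The list of cardiomyocyte-enriched microRNAs matched 15 loci, of which 9 were members and 6 were at 0 in both genotypes. Of these, 5 were tested and 2 called, Mir208a and the Mir22 locus, beside 7.36% of all tested loci. Mir133a-2 was at 66.4 FPKM in DKO against 42.2 in Ctrl and was not called (q 0.935 in the authors' deposited table). Mir1a-1, which shares its listed interval, was at 45.8 and 0, and Mir133a-1 was at 170.2 and 221. These are microRNAs that restrain growth and conduction programs in muscle. Mir1b, which is not on the list, was at 0 and 5.31 FPKM and was not called (q 0.569 in the authors' deposited table). Mir486, in the interval of Ank1, was at 11.7 and 4.37 FPKM beside Ank1 at 164 and 182. Mir378b, on the strand opposite to Msi2, was at 21.4 and 93.6 FPKM beside Msi2 at 55.6 and 66.1. Apart from Mir208a and the Mir22 locus, the tested rows of this list (Mir208b, Mir133a-2 and Mir378b) were not called. The list's other rows were not tested, and its rows lay on both sides of equality.

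The list of fibroblast and smooth muscle microRNAs matched 13 loci, with 5 members and 8 at 0 in both genotypes. Of the 13, 3 were tested and 0 called by Cuffdiff, beside 7.36% of all tested loci, with 0 at an unadjusted p under 0.05. Mir143 and Mir145, a smooth muscle pair in 1 interval, were at 164 and 76.3 FPKM in DKO and both listed at 0 in Ctrl. Both DKO values were the lowest above 0 at their lengths, as were those of other rows given below. Mir143 was not called (q = 0.548 in the authors' deposited table), and Mir145 was not tested. Mir199b was at 7.21 and 0. In the A330023F24Rik locus with the matrix-regulating Mir29b-2 and Mir29c, the row was at 274 FPKM in DKO against 122 in Ctrl. Mir29c was at 202 and 117, Mir29b-2 at 66.7 and 0, and the host transcript at 4.95 and 4.82, with a q of 0.875 for the locus in the authors' deposited table. The remaining member, the Vmp1 locus with Mir21, lay on the lower side, as given above. Of 9 fibroblast markers 7 were called higher, and of 6 smooth muscle markers 1, Acta2, beside 4.3% of all tested loci. The smooth muscle markers summed to 611 FPKM in DKO and 525 in Ctrl. Their part in these values was not tested.

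The list of endothelial microRNAs matched 13 loci, with 5 members and 8 at 0 in both genotypes. Of the 13, 3 were tested and 0 called by Cuffdiff, beside 7.36% of all tested loci. At an unadjusted p under 0.05 there was 1, Mir24-2. Mir126, which overlaps an exon of the vessel gene Egfl7, was at 239 FPKM in DKO against 442 in Ctrl (q = 0.959 in the authors' deposited table). Egfl7 was at 84.9 and 90.6 FPKM and was not called. The other 4 members belong to the paired clusters that both give miR-24-3p. In the cluster on chromosome 13, Mir23b was at 56.8 and 144 FPKM and Mir24-1 at 0 and 108. In the cluster on chromosome 8, Mir27a was at 22.4 and 0 FPKM and Mir24-2 at 16.2 and 0, with a q of 0.183 for Mir24-2 in the authors' deposited table. Of these 4 rows Mir24-1 and Mir24-2 were tested and Mir23b and Mir27a were not, and Mir27b and Mir23a of the same clusters were at 0 in both genotypes.

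Mir24-1 had the same listed interval as Mir3074-1 (chromosome 13 at 63402507 to 63402591), a microRNA of the other strand in GRCm38. Mir3074-1 was at 24.5 FPKM in DKO against 0 in Ctrl, the opposite order to Mir24-1. No source used here states that strand was counted, so reads of these overlapping hairpins cannot be told apart and both values are uncertain.

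In the other seed groups, Mir26b was at 24.5 FPKM in DKO against 0 in Ctrl, and Mir26a-1 at 0 and 24.9. Their hosts encode related small phosphatases of RNA polymerase. Ctdsp1 was at 59.2 and 61.3 FPKM, Ctdspl at 3.27 and 3.10, and the Ctdsp2 transcripts at 37.5 and 36.5, with Mir26a-2 at 0 in both. Mir25 and Mir32 were both listed at 0 in Ctrl, and at 50.4 and 77.0 FPKM in DKO. Mir26b, Mir26a-1, Mir26a-2, Mir25 and Mir32 were not tested. Ctdsp1, Ctdspl and the Ctdsp2 locus were tested and not called.

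The list of blood cell microRNAs matched 15 loci, of which 13 were at 0 in both genotypes and 1 was a member. That was Mir142, a microRNA of blood cells, at 136 FPKM in DKO against 0 in Ctrl, and it was not tested. That value was the lowest above 0 in DKO among microRNA loci of 1 short transcript of 64 bases, and Mir3094 shared it. Mir142 has the same direction as the macrophage markers given above, whose part in it was not tested. Of 46 loci of imprinted clusters, 43 were at 0 in both genotypes, and the Meg3 locus was the 1 member.

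Short transcripts of the member loci numbered 139 and were 57 to 128 bases long, with a median of 83. Snord33 and Snora47, small nucleolar RNAs, are among them. They were above 0 in both genotypes for 61, in DKO alone for 36, in Ctrl alone for 21, and at 0 in both for 21. Of those above 0 anywhere, 48.3% were at 0 in 1 genotype, beside 34.5% for the short transcripts above 0 in loci without a microRNA. For the 61 with both values, 24 were higher and 37 lower in DKO, the median log2 ratio was -0.14, and 13 were past 2-fold. Over all 605 microRNA loci, 531 of 649 short transcripts were at 0 in both genotypes.

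Level and length were tied in the 86 loci that consist of 1 short transcript. In DKO the lowest value above 0 was 56.8 FPKM among transcripts under 75 bases (n = 19), 13.8 at 75 to 99 bases (n = 37) and 5.17 at 100 bases or more (n = 14). In Ctrl these minima were 75.4 (n = 12), 17.1 (n = 32) and 4.37 (n = 18). The medians were in the same order, at 164, 38.5 and 16.2 FPKM in DKO and 246, 54.2 and 13.5 in Ctrl. Several values set against 0 above were the lowest above 0 at their exact length. In DKO these included Mir143, Mir145, Mir1a-1, Mir199b, Mir27a, Mir24-2 and Mir26b, and in Ctrl Mir24-1 and Mir26a-1. At a length with only 1 locus above 0 this holds by definition. Transcripts of equal length also shared exact values. Mir142 and Mir3094, both of 64 bases, were each at 135.819 FPKM in DKO, and Mir5100, of the same length, at 2 times that value. Mir26b and Mir3074-1, of 85 bases, were both at 24.5, and Mir1938 and Mir3471-1, of 100 bases, were both at 13.5 in Ctrl. The tables hold no read counts, so the number of reads behind such a value is unknown.

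**Figure D4:**
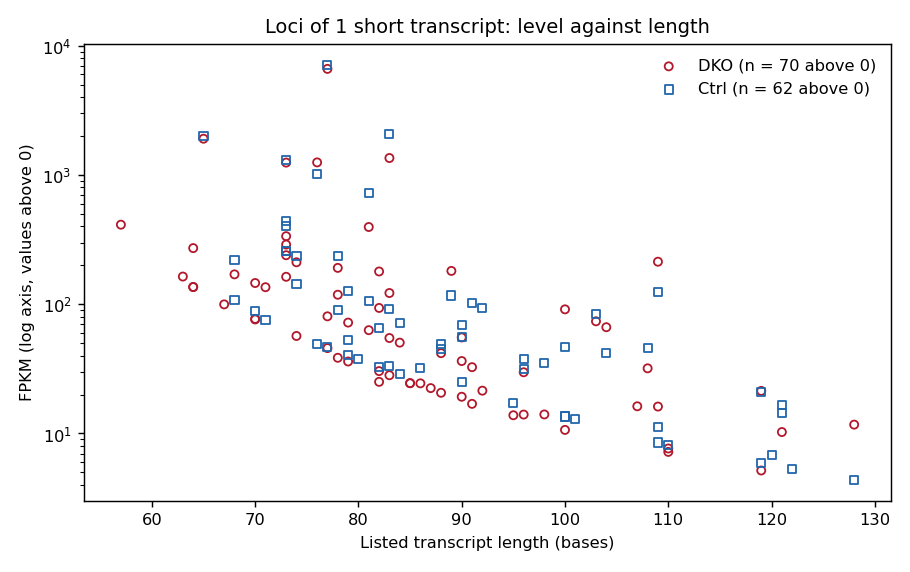
FPKM on a log axis against listed transcript length in bases for the 86 member loci of 1 short transcript, with values above 0 in DKO (red circles, n = 70) and Ctrl (blue squares, n = 62). The lower edge of the points descends with length, from 56.8 FPKM under 75 bases to 5.17 at 100 bases or more in DKO.

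Mir208b, Mir3100, Mir568 and Mir1839 were the highest of the loci of short transcripts alone. Mir3100, in an intron of the myotonic dystrophy kinase gene Dmpk, was at 1906 FPKM in DKO against 1993 in Ctrl beside Dmpk at 342 and 361. Mir1839 was at 1246 and 1312, and the gene 2900076A07Rik of its interval at 16.4 and 20.3. Mir568, listed with an interval of its own on chromosome 16 (43640768 to 43640850), was at 1351 and 2088 FPKM. In GRCm38 its hairpin overlaps an exon of Zbtb20 on the same strand. The q of Mir568 was 0.315 in the authors' deposited table, and neither Mir3100 nor Mir1839 was called.

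In the GRCm38 annotation, 111 hairpins had 1 position. Of these, 62 overlapped an exon of a longer gene on their strand and 34 lay in an intron of one. A further 6 lay on the opposite strand of a gene alone, 6 outside such genes and 3 at an exon's edge. The short transcript was above 0 in both genotypes for 32 of the 62 exonic and 12 of the 34 intronic hairpins. A mean of at least 100 FPKM was reached by 14 and 9 of them. Mir208b and Mir3100 were the highest of the intronic group, and Mir3064 of the exonic group.

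The genes that make and use microRNAs were close to equal where their row holds no microRNA. The list matched 34 loci, of which 31 were tested and 0 called by Cuffdiff, beside 7.36% of all tested loci. Of the 31, 0 had an unadjusted p under 0.05. For the 28 tested loci that hold no microRNA, log2 ratios ran from -0.18 to 0.15 with a median of -0.02, 9 above and 19 below 0. Drosha was at 15.4 FPKM in DKO against 16.8 in Ctrl, and Dicer1 at 7.61 and 8.07. Xpo5, which exports hairpins from the nucleus, was at 11.7 and 11.9, and Eif2c2, the Argonaute 2 gene, at 9.57 and 9.71. The helicase gene Ddx17 was at 93.5 and 94.5 FPKM, and Ran, the small GTPase of nuclear transport, at 57.9 and 58.7.

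The remaining 3 hold a microRNA themselves, and their rows differed more than their host transcripts. Besides Ddx5 and Tnrc6b, this was Dgcr8, the RNA-binding partner of Drosha, with Mir1306 in its exon. The locus was at 26.9 FPKM in DKO against 5.93 in Ctrl, Mir1306 at 22.2 and 0.951, and the Dgcr8 transcripts at 4.77 and 4.98. The gene row had a log2 ratio of 2.18 and the host transcripts one of -0.06.

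The minimum of 1 FPKM acted on host transcripts. Of 605 microRNA loci, 460 were at 0 in both genotypes and 12 lay above 0 and under the minimum, none of them with a short transcript above 0. Just inside it were Sumo2 with Mir684-1, at a mean of 1.52 FPKM, and Mir17hg with Mir19b-1, the host transcript of a cluster of growth-related microRNAs, at 1.59 (1.62 in DKO and 1.55 in Ctrl). Just outside were F630028O10Rik with Mir223, a microRNA of myeloid cells, at 0.833 (0.913 and 0.754), and Dio3os with Mir1247 at 0.355 (0.440 and 0.271).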

How the data were processed

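RNA of 4 DKO and 4 Ctrl ventricles was sequenced as single-end Illumina libraries from a TruSeq kit, per the labels' protocols. The authors used TopHat2 2.0.9, Cufflinks 2.1.1 and Cuffdiff 2.1.1 with the mouse build mm9, per the submitters' processing notes. Neither annotation nor settings are stated in these sources. The 5 deposited tables (4 used, without the subset of called genes) hold the authors' FPKM, 1 pooled value per genotype, and the authors' p-values and q-values, per the file headers. Listed transcript lengths, in bases, come from the deposited isoform table. Depth is unknown, so no interval or detection limit was computed, and no test across animals was possible.

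Computed here were log2 ratios and folds of DKO over Ctrl without a pseudocount, sums of isoforms under 200 bases and of 200 bases or more within a locus (they add up to the gene value to within 0.000387%), and counts of calls at a q of at most 0.05. Locus and host ratios parted at over 1.5-fold, or in sign with both past 0.1. The splitting code was tested on simulated data. RefSeq tables (GRCm38.p6) gave sequences and, with the annotation of that build, hairpin places, and no coordinate was carried between builds. The members and all lists were chosen with earlier results of these data known. Named loci were the called members, the 5 of highest level, those with the 3 largest and 3 smallest host ratios, the 5 largest gaps, members on the fixed microRNA lists and the threshold's neighbours. Mir324, Mir3058, Mir1192, Mir25, Mir32, the let-7 loci, Mir3074-1, Mir1b and the Prmt2, Scd2, Psmb5, Rpl13a, Ercc2, Dgcr8, Nrp1, Zeb2 and Mmgt1 loci were added with their values in view. The alternatives concerned the level filter, length split, pseudocount, q and fold thresholds and table level. Python 3.11.15, pandas 2.3.3, numpy 2.4.6 and matplotlib 3.10.9 were used.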

Additional observations from a re-analysis of the deposited data

How the results depend on the processing

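No paired analysis was possible because the tables hold 1 pooled value per genotype, and for the same reason no replicate could be left out. With the longer transcripts alone held to a mean of at least 1 FPKM, 44 loci were members in place of 133. Called member loci numbered 2 by longer isoforms (Cd74 and Scd2), 4 by start site groups and 3 by coding sequences (Cd74, Scd2 and Prmt2), in place of 7. By longer transcripts, and by the main longer isoform, the log2 ratio turned to -0.11 for Apba3 with Mir3057 and to -0.082 for 2210403K04Rik with Mir22. In both settings 8 other named loci moved and 8 did not. Of those that moved, 4 uncalled loci also changed sign: by longer transcripts Prmt2 was at 0.49 in place of -2.13, A330076H08Rik at 0.42 in place of -11.34, Tnrc6b at -0.10 in place of 2.96 and Rps6ka4 at -0.03 in place of 2.79. Ddx5, counted as unmoved, was at -0.02 in place of 0.29. With 1 FPKM added, 2 of 29 named ratios moved. The median host ratio stayed between -0.03 and 0.01, and no alternative gave a called gene of the microRNA machinery.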
